A study of Mus musculus with 2 samples.

Results

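The naive pluripotency transcription factors examined here were Nanog, Klf2, Klf4, Klf5, Tbx3, Prdm14, Esrrb, Tfcp2l1, Zfp42 and Nr5a2. They were taken as all probe sets whose single gene symbol in the platform annotation was 1 of these 10 names, which gave 24 of 45101 probe sets, or 10 of 18193 genes. Each probe set consists of several short oligonucleotides on the array whose hybridization gives 1 signal. The samples were mouse embryonic stem (ES) cells carrying a constitutive knockout of Eed (Eed KO) and ES cells given as the control of that knockout, each measured on 1 Affymetrix MOE430 2.0 array. Eed is a subunit of Polycomb repressive complex 2, which methylates histone H3 at silent genes. The labels name no treatment or passage, no strain, and no feeder cells, and do not say which part of Eed was disrupted, whether the knockout is 1 clone, or whether both lines have the same parent. With 1 array in each group replicate error could not be estimated and no test could be made, and each difference below is a difference between these arrays only.

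ES cells in the naive state resemble the inner cell mass of the blastocyst before implantation. A network of transcription factors, sustained by the cytokine LIF through STAT3 and opposed by FGF and ERK signalling, holds them there, while the core factors Oct4 and Sox2 are shared with the later, primed epiblast. In this network Klf4 and Tfcp2l1 are known as targets of STAT3, Esrrb as a target of Nanog, Tbx3 as a factor whose expression responds to PI3 kinase signalling, and Prdm14 as a repressor of FGF receptor and DNA methyltransferase genes that can act with Polycomb repressive complex 2.

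Of the 10 factors, 3 exceeded the control array by at least 2-fold in the Eed KO array, 0 were at least 2-fold lower and 7 stayed within 2-fold. Over all measured genes the share was 10.7% for at least 2-fold higher and 3.27% for at least 2-fold lower. The 3 were Tbx3, Prdm14 and Klf4. Nanog, Zfp42 and Tfcp2l1 were between 1.5-fold and 2-fold higher, and Klf5, Esrrb, Klf2 and Nr5a2 differed by less than 1.5-fold. The median log2 ratio of Eed KO over control was 0.73 over the 10 factors, against 0.12 over all 13805 measured genes. A gene was counted as measured when its signal was above a floor of 61.3, the 40th percentile of all signals, on at least 1 array, and all 10 factors were above it on both. In bulk RNA such as this, a different share of cells that transcribe a gene and a different amount of its RNA per cell cannot be told apart.

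The promoter table of RefSeq on build GRCm38.p6 matched 7 of the 10 factors by symbol, with 10 promoter windows in all. Tbx3, Prdm14 and Klf5 had no window, so their promoters were not searched. Each window held 250 bases before and 50 bases after a transcription start. The motif GGGCGTGG, a form of the site that Klf proteins bind, was searched on both strands and lay in 5.33% of all 32851 windows and in 4 of the 10 windows of the factors. Both Nanog windows overlap and hold the same match, so 3 genes had it. The windows were not matched for GC content, and a link between these matches and the Klf4 ratio was not tested. The stretches with the match are shown here from 5′ to 3′ on the gene's own strand, with the match in capitals. The Nanog stretch lay at chr6:122707389-122707488 on the plus strand and the Tfcp2l1 stretch at chr1:118627845-118627944 on the plus strand. The Nr5a2 stretch lay at chr1:136953731-136953830 on the minus strand.
Nanog: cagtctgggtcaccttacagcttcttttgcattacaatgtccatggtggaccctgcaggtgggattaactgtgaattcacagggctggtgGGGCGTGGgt
Tfcp2l1: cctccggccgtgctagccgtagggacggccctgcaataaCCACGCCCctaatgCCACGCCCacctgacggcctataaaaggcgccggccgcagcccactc
Nr5a2: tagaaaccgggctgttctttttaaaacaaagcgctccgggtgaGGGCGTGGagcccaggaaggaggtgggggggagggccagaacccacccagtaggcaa

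Counted from the transcription start of each window, the Nanog match began at position -10 in 1 window and at -86 in the other. In Tfcp2l1 matches began at -61 and -47. In Nr5a2 the match began at -157 in 1 window, and the other Nr5a2 window had none. The Eed KO over control ratio was 1.80-fold for Nanog and 1.60-fold for Tfcp2l1, both under the 2-fold size, and near 1 for the brightest Nr5a2 probe set. Klf4, the 1 factor with a promoter window that was at least 2-fold higher, had no match, nor had Zfp42, Klf2 or Esrrb. The STAT motif TTCNNNGAA lay in 8.30% of all windows and in 1 window of the factors, that of Esrrb, and the Esrrb motif TCAAGGTCA in 0.42% of all windows and in 0 of the 10. No window of the factors held more than 1 kind of these motifs. A match is a run of letters and not a site shown to be bound.

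Klf4 and Klf2 both start in CpG-dense sequence, the kind at which Polycomb complexes are known to bind. Their windows held 40 and 32 CpG dinucleotides, against a median of 7 over all windows, and those of the other matched factors held 2 to 21. The 100 bases before each start are shown for these 2 genes, with CpG in capitals. A link between CpG content and the ratios was not tested. The Klf4 stretch lay at chr4:55532476-55532575 on the minus strand and held 16 CpG, and the Klf2 stretch lay at chr8:72318962-72319061 on the plus strand and held 12.
Klf4: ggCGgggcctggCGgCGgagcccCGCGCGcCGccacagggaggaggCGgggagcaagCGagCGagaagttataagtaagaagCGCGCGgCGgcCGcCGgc
Klf2: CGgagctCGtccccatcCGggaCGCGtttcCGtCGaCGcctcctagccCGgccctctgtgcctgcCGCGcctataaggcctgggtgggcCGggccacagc

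Across the whole table, the mean after removal of the lowest and highest 2% of signals was 500.0 on both arrays as deposited, and the median signal was 108.1 in the Eed KO and 87.4 in the control. The excess of higher genes over lower ones was smaller at high signal. Among the 5781 genes whose mean log2 signal was at least that of 10 times the floor, here called bright, 5.10% were higher and 3.53% lower by 2-fold, and 12.8% were higher by 1.5-fold. The median log2 ratio over measured genes was 0.12 with the deposited scaling and -0.16 with both arrays scaled to the same median, so a log2 ratio near 0 takes its sign from the scaling. The main probe set of Eed read 11456 in the Eed KO and 10101 in the control (log2 ratio 0.18). As the disrupted part of the gene is not given, this signal does not check the label.

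Read against these shares, 2 of the 9 bright factors were at least 2-fold higher and 5 of the 9 at least 1.5-fold higher. Prdm14 was the factor outside the bright class, since its signal in the control was low. Over the probe sets, 20 of the 24 were above the floor on at least 1 array, and 7 of these 20 were at least 2-fold higher and 0 lower, against 9.21% higher over all 29848 measured probe sets. These 7 belong to 3 genes, and 2 of them passed the floor only in the Eed KO, which fixed their direction, so they are not independent of each other.

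**Figure D1:**
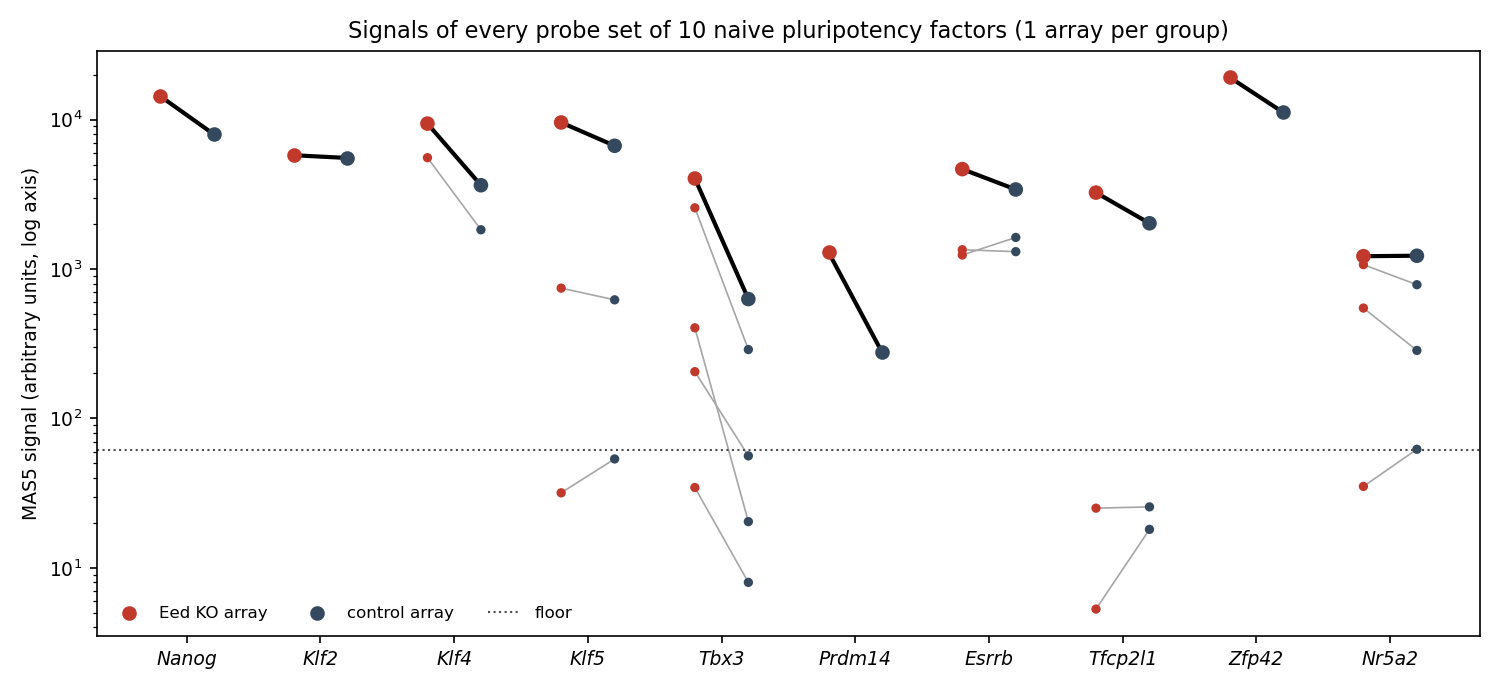
Signals of all 24 probe sets of the 10 factors on a log axis, with the Eed KO array on the left and the control array on the right of each pair. Large points and black lines mark the probe set that stands for the gene, small points and grey lines the others, and the dotted line the floor of 61.3. The lines fall most steeply from left to right for Tbx3, Prdm14 and Klf4, and the black lines of Klf2 and Nr5a2 lie nearly flat, while other Nr5a2 probe sets slope either way.

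Tbx3, a T-box factor that favours ES cell self-renewal and also acts in the formation of extraembryonic endoderm and limb mesenchyme, had the largest ratio of the 10. Its brightest probe set read 4038 in the Eed KO array and 630.1 in the control array, a 6.41-fold difference (log2 ratio 2.68). A larger ratio was found for 56 of all measured genes, which is 0.41%. The array holds 5 probe sets for Tbx3. The second read 2570 in the Eed KO and 289.3 in the control (8.88-fold), although its name ends in _x_at, the manufacturer's mark for probes that may also match other transcripts. Another pair was above the floor only in the Eed KO, at 404.3 and 205.7 against 20.4 and 56.2 in the control, so that their ratios of at least 6.60-fold and at least 3.36-fold are lower bounds. The fifth did not reach the floor on either array, at 34.5 in the Eed KO and 8.0 in the control. Thus both probe sets of Tbx3 above the floor on both arrays were higher in the Eed KO, while for the pair above it in the Eed KO alone the floor fixed the direction.

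Prdm14, a zinc finger protein with a PR domain that is expressed in naive cells and in primordial germ cells, read 1294 in the Eed KO array and 277.2 in the control array, 4.67-fold higher (log2 ratio 2.22). A larger ratio was found for 130 of all measured genes (0.94%). It has a single probe set, so no other probe set bears on this ratio.

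Klf4 read 9409 in the Eed KO array and 3639 in the control array, 2.59-fold higher (log2 ratio 1.37). Its other probe set read 5565 in the Eed KO and 1832 in the control, 3.04-fold higher (log2 ratio 1.60). Among bright genes 2.51% had a larger ratio than Klf4. Klf4 is a Krüppel-like zinc finger factor known for its use in reprogramming, and Klf2 and Klf5 are relatives that share part of its role in ES cells.

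Klf2 and Klf5 had smaller ratios than Klf4. Klf2, with 1 probe set, read 5777 in the Eed KO and 5541 in the control (log2 ratio 0.06). Klf5 read 9573 in the Eed KO and 6686 in the control for its brightest probe set (1.43-fold, log2 ratio 0.52) and 745.4 and 622.4 for its second (log2 ratio 0.26). The last Klf5 probe set did not reach the floor, at 31.8 in the Eed KO and 53.6 in the control. The Klf trio therefore spanned a range of log2 ratios from 0.06 to 1.37, and the direction for Klf2 depended on the scaling: it was -0.25 with both arrays at the same median, -0.14 when scaled on the poly-A spikes and -0.02 when scaled on the hybridization spikes.

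Nanog, the homeodomain factor that stabilises self-renewal, read 14393 in the Eed KO array and 8007 in the control array, 1.80-fold higher (log2 ratio 0.85). Zfp42, the zinc finger gene also known as Rex1 and widely used as a reporter of the naive state, read 19195 in the Eed KO and 11182 in the control, 1.72-fold higher (log2 ratio 0.78). Tfcp2l1, a CP2-family factor downstream of LIF, read 3249 in the Eed KO and 2025 in the control, 1.60-fold higher (log2 ratio 0.68). These 3 ratios lay close together and under the 2-fold size used for calls. Of the bright genes, 6.71% had a larger ratio than Nanog, 7.70% than Zfp42 and 9.86% than Tfcp2l1. Nanog and Zfp42 have a single probe set each, and the 2 further probe sets of Tfcp2l1 were under the floor on both arrays.

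The orphan nuclear receptors gave different answers by probe set. Esrrb read 4666 in the Eed KO and 3409 in the control for its brightest probe set (log2 ratio 0.45), 1242 and 1628 for a second that ends in _x_at (log2 ratio -0.39), and 1347 and 1308 for the last (log2 ratio 0.04). The mean over the 3 was 0.04, so the arrays show no single direction for Esrrb. Nr5a2, also called Lrh1, which binds control regions of the Oct4 gene, read 1219 in the Eed KO and 1228 in the control for its brightest probe set (log2 ratio -0.01). Further Nr5a2 probe sets read 1070 in the Eed KO and 785.7 in the control (log2 ratio 0.45), and 548.3 and 285.4 (log2 ratio 0.94, with a name ending in _s_at, which marks probes shared between transcripts). Its last probe set fell under the floor in the Eed KO, at 35.1, against 62.2 in the control. The mean over its measured probe sets was 0.34, so the sign for Nr5a2 depended on the probe set.

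**Figure D2:**
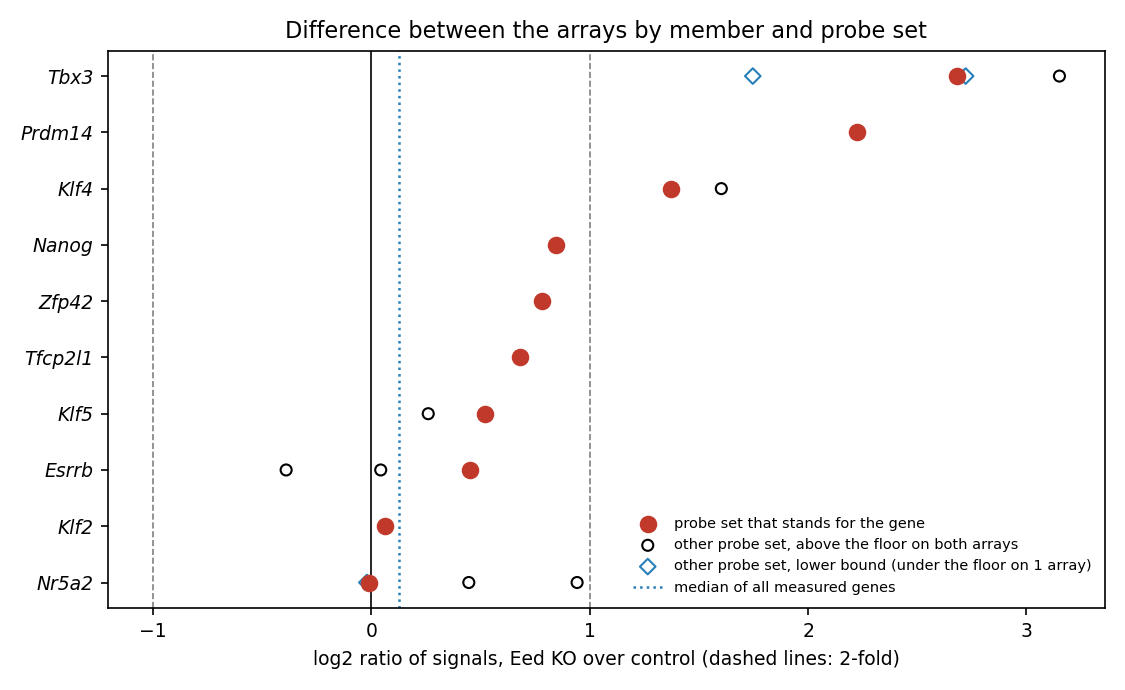
Log2 ratio of Eed KO over control for each factor, sorted by size. Filled points are the probe set that stands for the gene, open circles other probe sets above the floor on both arrays, and diamonds probe sets under the floor on 1 array, whose ratio is a bound. The measured probe sets of Tbx3 and Klf4 lie beyond the dashed 2-fold line, 2 of those of Tbx3 being bounds, while those of Esrrb and Nr5a2 lie on both sides of 0.

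The only repeated measurement within the pair of arrays is that of a gene by several probe sets. Estimated from the brightest and next probe set of the same gene, the spread of log2 ratios had an SD of 0.18 where the dimmer had a mean signal of at least 2048 (687 genes), 0.23 between 512 and 2048 (1559 genes) and 0.41 below 512 (3176 genes). It covers probe and transcript isoform differences and not the variation between cultures. The ratios of Tbx3, Prdm14 and Klf4 were several times this spread, and those of Klf2 and Nr5a2 were smaller than it. The ratios of Nanog, Zfp42, Tfcp2l1, Klf5 and Esrrb were also larger than it. Yet other probe sets gave -0.39 for Esrrb and 0.94 for Nr5a2, so this spread does not sort the factors. The cultures' own spread is unknown.

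Related genes on the same arrays give the setting. In the core pluripotency list, 0 of 9 genes were at least 2-fold higher and 1 was lower, with a median log2 ratio of -0.34. Pou5f1, which encodes Oct4, read 11352 in the Eed KO and 12948 in the control, and Sox2 read 8531 and 11826. The lower gene was Dppa4, at 3129 in the Eed KO and 7304 in the control. All 9 genes had a ratio below 1 as deposited, but 2 were above 1 with quantile normalization or with the intensity trend removed. With both arrays at the same median 3 were at least 2-fold lower and the list's median was -0.64. Oct4 and Sox2 transcripts, the defining markers of ES cells, thus read high on both arrays.

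In the LIF and STAT3 pathway list, 2 of 10 genes exceeded the control by 2-fold and 0 fell short of it by as much (median log2 ratio 0.06). Over all measured genes 10.7% were higher and 3.27% lower. The 2 higher genes of the list were the cytokine gene Lif, at 355.4 in the Eed KO and 139.7 in the control, and the kinase gene Jak2, at 431.7 and 188.6. Jak2 was under 2-fold in 4 of the 10 alternatives, down to a log2 ratio of 0.89, and Lif in 1, at 0.92 as the mean over probe sets. The list's median was -0.24 with both arrays at the same median. Stat3 itself read 2766 in the Eed KO and 1647 in the control (log2 ratio 0.75), and Socs3, a feedback inhibitor that STAT3 induces, read 3726 and 3054 (log2 ratio 0.29). As deposited, 5 genes of the list had a ratio above 1 and 5 a ratio below 1. Those below were Lifr (log2 ratio -0.16), Il6st (-0.42), Pim1 (-0.47), Pim3 (-0.27) and Bcl3 (-0.33). Of 11 other markers of the naive state, 2 were higher and 1 lower (median 0.12, or -0.18 at the same median). The adhesion gene Jam2 was 3.92-fold and Tcl1 2.47-fold higher, although Tcl1 fell just under 2-fold at the same median, and the homeobox gene Gbx2, a STAT3 target in ES cells, read 191.2 in the Eed KO and 1583 in the control. Other markers of the naive state thus lay in both directions.

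Among the primed epiblast markers, of which 11 were measured, 1 was at least 2-fold higher and 5 were lower, with a median log2 ratio of -0.81. Fgf5, a defining marker of the primed state, did not reach the floor on either array, at 9.9 in the Eed KO and 10.6 in the control. Among the lower genes were Dnmt3a, a de novo DNA methyltransferase gene, at 271.6 in the Eed KO and 3052 in the control, the POU factor gene Pou3f1 at 247.9 and 1678, Lef1 at 115.2 and 321.7, and Dnmt3b at 4984 and 10849. Lef1 was under 2-fold in 2 of the 10 alternatives, at -0.85 as the mean over probe sets. Dnmt3a, at a log2 ratio of -3.49 by its brightest probe set, was at -2.00 as the mean over probe sets. The list's median was -0.53 as the mean over probe sets and -1.12 at the same median. Cdh2, which encodes N-cadherin, was the higher one, at 404.9 in the Eed KO and 152.7 in the control. Dnmt3a and Dnmt3b are also among 6 genes listed as repressed by Prdm14, of which 2 were lower and 0 higher (median -0.35). The other 4 stayed within 2-fold. They were Dnmt3l (log2 ratio 0.15), Uhrf1 (-0.67) and the receptor genes Fgfr1, at 797.8 in the Eed KO and 585.4 in the control, and Fgfr2, at 469.5 and 480.7. A link between these genes and the Prdm14 ratio was not tested. Of 12 measured genes known to promote exit from the naive state, 1 was higher (Fnip1, 3.28-fold) and 1 lower (Mbd3, log2 ratio -1.04), with a median of -0.12. Mbd3 was just under 2-fold with the intensity trend removed or a pseudocount, which left 0 lower, and at the same median 3 were lower and the median was -0.43.

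Relatives of the factors by protein family were also read, to place their ratios. Of 31 measured Klf, T-box, Prdm, Esrr, CP2, Nr5a and Yy genes outside the 10, 3 were at least 2-fold higher and 0 lower. Over all measured genes 10.7% were higher and 3.27% lower, so the share of higher relatives was near that of all genes. The relatives had a median log2 ratio of 0.22 (-0.09 at the same median). The 3 were Prdm16, at 230.4 in the Eed KO and 58.2 in the control, Tbx15, at 172.1 and 13.9, and Tbx18, at 142.7 and 69.7, which stayed at 2-fold in only 2 of the 10 alternatives. For Prdm16 and Tbx15 the control was under the floor, so that their ratios of at least 3.76-fold and at least 2.81-fold are lower bounds. With a higher floor, at the 60th percentile, 20 relatives were measured and 0 reached 2-fold.

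Marker lists of fibroblasts, primitive endoderm, trophectoderm and germ cells were also read, and each held more genes higher in the Eed KO array than lower. No list was read for other differentiated lineages, so nothing is said of their markers. For comparison, 10.7% of all measured genes passed the 2-fold size upward and 3.27% downward. The upward share was 5.10% among bright genes alone, and the lists were not matched for signal. By the 2-fold size, 17 of 23 measured fibroblast markers were higher and 0 were lower (median log2 ratio 1.43), with a summed signal of 66784 in the Eed KO and 31684 in the control, and Lum was under the floor on both arrays. The count of higher fibroblast markers was 13 at the same median and 18 with quantile normalization. Of 14 measured primitive endoderm markers 7 were higher and 1 lower (median 1.06, summed signal 12210 and 8079), with Ttr under the floor on both, and a floor at the 60th percentile left 4 of 12 higher. Of 13 trophectoderm markers 7 were higher and 0 lower (median 1.0, summed signal 18468 and 9599), with the defining factor Cdx2 under the floor on both. At the same median 5 of these 13 were higher and 1 lower, and a floor at the 25th percentile gave 9 of 14 higher. Of 10 germ cell genes 6 were higher and 0 lower (median 1.29, summed signal 7354 and 4925). For 2 of the 6 higher genes the direction was fixed, as they passed the floor only in the Eed KO, and the higher floor left 3 of 9 higher with a median of 0.58. Klf4 and Tbx3 are also transcribed in mesenchymal cells, Klf5 and Esrrb in trophoblast, and Prdm14 in germ cells, and the part of such cells in the ratios was not tested.

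**Figure D3:**
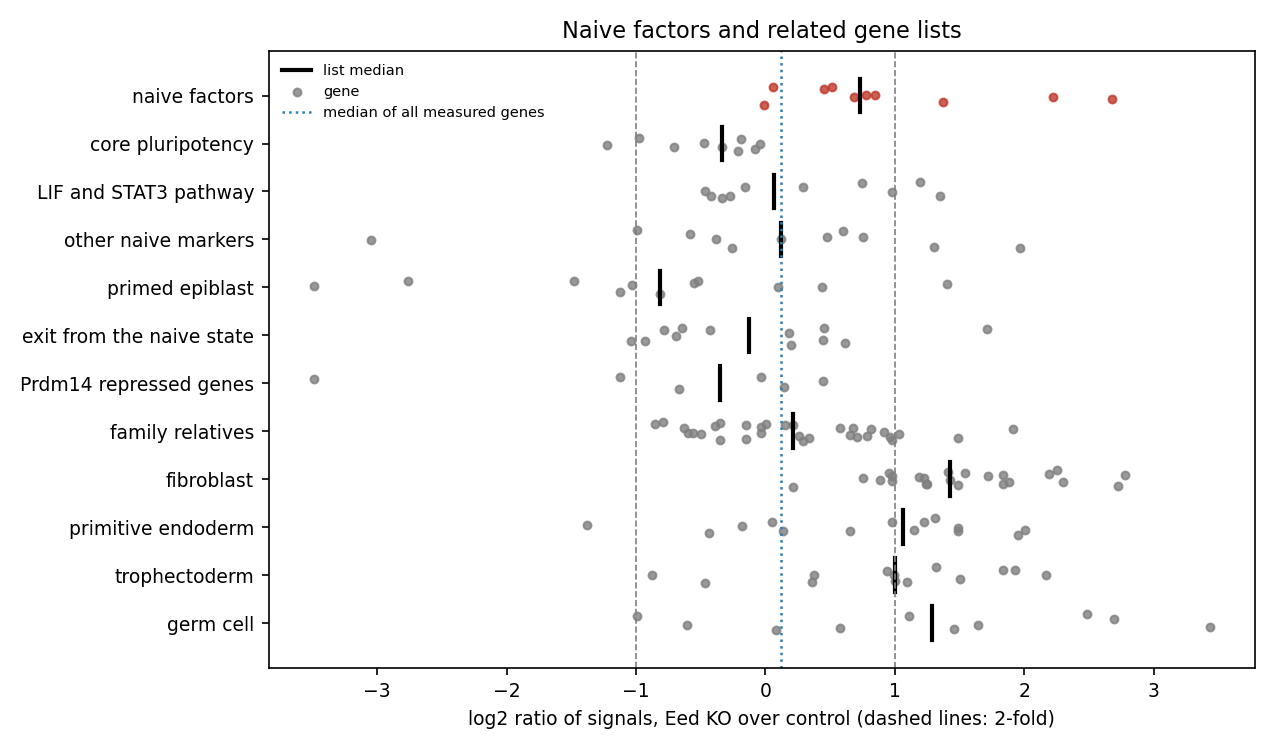
Log2 ratio of Eed KO over control for each measured gene (points) of the 10 naive factors and of 11 related lists, with the list median as a black bar, the dashed lines at 2-fold and the dotted line at the median of all measured genes. The naive factors have a median of 0.73, the core pluripotency list one of -0.34, the primed list one of -0.81 and the fibroblast list one of 1.43.

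Under the 10 other ways of processing, Tbx3, Prdm14 and Klf4 were at least 2-fold higher in every case, with lowest log2 ratios of 2.37, 1.92 and 1.06, each when both arrays were given the same median. The floors at the 25th and 60th percentile and the removal of _x_at and _s_at probe sets could not change the factors' values. The probe set that stands for each factor was above each floor on both arrays and had no such name. Averaging over probe sets could not change Nanog, Klf2, Prdm14, Tfcp2l1 or Zfp42, each with 1 measured probe set. Nanog, Zfp42 and Tfcp2l1 kept a ratio above 1 and stayed under 2-fold in all 10, with ranges of 0.54 to 0.98, 0.47 to 0.91 and 0.38 to 0.76. Klf5 ranged from 0.21 to 0.65 and Esrrb from 0.04 to 0.56. Relative to the median of all measured genes, the lowest values were 2.44 for Tbx3, 1.88 for Prdm14, 1.22 for Klf4, 0.70 for Nanog, 0.63 for Zfp42, 0.53 for Tfcp2l1 and 0.26 for Klf5. They were below 0 for Klf2 (-0.09), Esrrb (-0.10) and Nr5a2 (-0.16). For Klf2 and Nr5a2 the sign changed between settings.

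**Figure D4:**
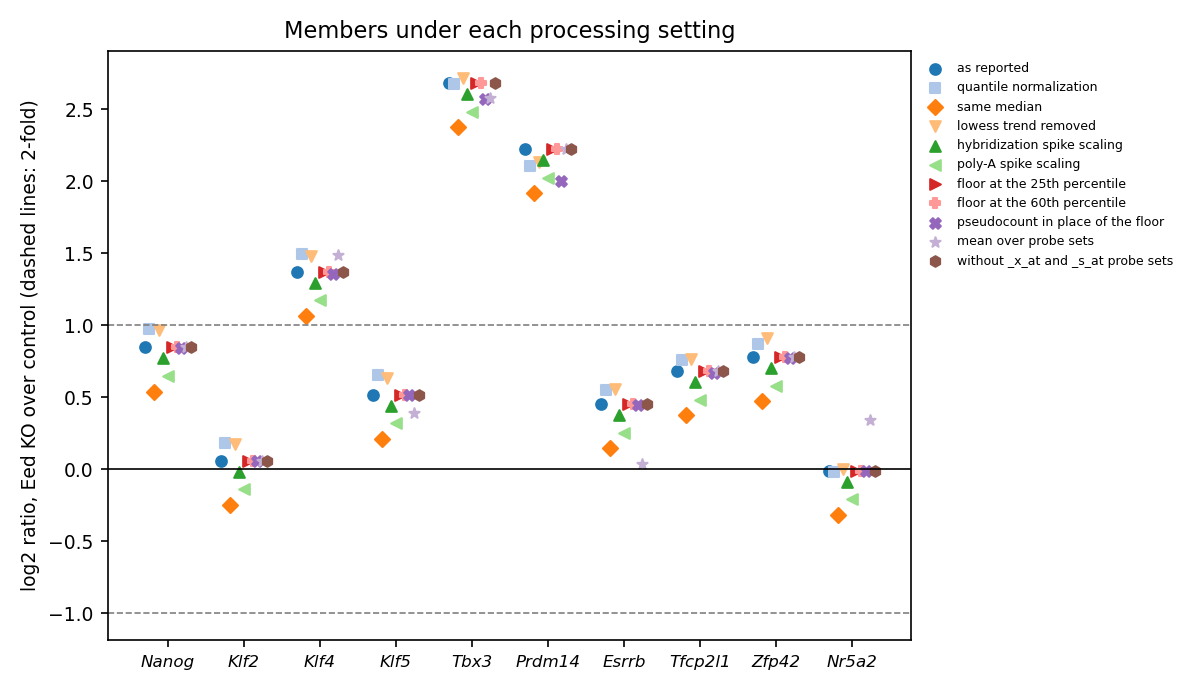
Log2 ratio of Eed KO over control for each factor as reported and under the 10 other ways of processing (1 symbol each), with dashed lines at 2-fold. Tbx3, Prdm14 and Klf4 lie above the upper line in every case, and Klf2 and Nr5a2 have symbols on both sides of 0.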

How the data were processed

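Total RNA of the 2 ES cell samples was hybridized to 1 array each. The deposited intensities are MAS5 signals on a linear scale, 1 per probe set and array, per the submitters' processing notes, which give no version. No detection calls were used. Groups came from the sample titles.

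The platform annotation gave 34945 probe sets 1 symbol and 932 several, which were not named, and 64 were manufacturer's controls. The probe set brightest by mean log2 signal stood for a gene. Signals under the floor of 61.3 (40th percentile of non-control signals of both arrays) were set to it. A ratio of Eed KO over control is then a lower bound where only the control was under the floor. It is an upper bound where only the Eed KO was. Differences of at least 2-fold were counted. No test between conditions was possible with 1 array per group. Python 3.11.15, pandas 2.3.3 and statsmodels 0.14.6 were used, and the computation was tested on simulated data.

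The members, the lists and the rule for named genes (all members, Pou5f1, Sox2, Eed and up to 4 of the most different genes per list) were chosen with earlier results of these data known. Stat3, Socs3, Lifr, Il6st, Pim1, Pim3, Bcl3, Fgf5, Fgfr1, Fgfr2, Dnmt3l and Uhrf1 were named after their values were seen. For markers of other cell types mainly counts are given. With 2 arrays no likeness of pattern over samples was computed. A planned comparison of Klf protein sequences was not run.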

Additional observations from a re-analysis of the deposited data

How the results depend on the processing

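In turn, the arrays were set to the same median, quantile normalized, freed of a lowess trend (span 0.3), or scaled on 18 hybridization spike or 24 poly-A spike probe sets. The floor was put at the 25th or 60th percentile or replaced by a pseudocount of its size. Genes were taken as the mean over probe sets, or without those named _x_at and _s_at. Finally, 1.5-fold or 3-fold was used as the size. The count of factors at least 2-fold higher was 3, and 0 were lower, in each of the first 10. The other floors and the removal of _x_at and _s_at probe sets could not change this count, as they left every factor's value as reported. At 1.5-fold 6 were higher and 0 lower, against 23.3% and 10.2% of all measured genes, and at 3-fold 2 were higher and 0 lower, against 3.53% and 0.74%. The median log2 ratio of the factors, 0.73, was 0.42 with the same median and 0.53 with poly-A scaling, which multiply all ratios by 1 factor. Of all measured genes, 6.35% were higher and 7.49% lower by 2-fold with the same median, against 10.7% and 3.27% as deposited. Of 100 gene values under these alternatives 19 moved by more than the probe set SD and 81 by less. The 81 include all values under the other floors and without _x_at and _s_at probe sets, which were fixed in advance. They also include the means over probe sets of Nanog, Klf2, Prdm14, Tfcp2l1 and Zfp42, each with 1 measured probe set. The 81 thus overstate how stable the values were. No paired analysis was possible because each group has 1 array. No detection calls were used, so the floor alone sets which low signals count, and precision is limited by there being 1 array per group.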
